A study of Mus musculus with 18 samples.

Results

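The comparison described here set mouse jejunum after FLASH irradiation against jejunum of mice that received no treatment. Members were the libraries whose labels gave the FLASH or the no-treatment group, 13 of the 18 libraries of the series: 7 FLASH libraries (numbered 1, 2, 4, 5, 6, 7 and 9) and 6 control libraries (numbered 1 to 6). All mice were C57BL/6, an inbred laboratory strain, 8 to 12 weeks old and kept with free access to food. FLASH mice received a single 15 Gy dose to the whole abdomen at an ultra-high dose rate and were sampled 16 h later, and control mice were not irradiated. Another group (CONV) held 5 libraries from mice given the same dose at a conventional rate, and was used to test where the FLASH response differed from it. Its libraries were part of the same fit, so they also entered the gene filter, the scaling and the estimate of spread for FLASH against control. Values of CONV are given for libraries 2, 3, 5, 6 and 7 in that order. Whole jejunum was used, so each library mixed RNA of epithelium, lamina propria, vessels, muscle and nerves, and fewer cells of a type and less RNA per cell cannot be told apart. Since the labels leave unstated whether each mouse gave 1 library, p-values describe only the spread among these libraries. The labels give a cycle of 12 h light and 12 h dark and no clock time of tissue collection.

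Radiation breaks DNA and stabilises the transcription factor p53, which switches on genes of cell cycle arrest and of programmed cell death. In the small intestine the dividing cells sit in the crypts, where stem cells renew the absorptive and secretory epithelium of the villi and Paneth cells secrete antimicrobial peptides beside them. Lymphocytes of the lamina propria are among the most radiosensitive cells of the body, while muscle and endothelium divide rarely. FLASH delivers the dose in a small fraction of a second and is studied because normal tissue has been reported to tolerate it better than conventional irradiation.

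FLASH jejunum differed from control jejunum in many genes in both directions. With edgeR's quasi-likelihood test, 6135 of 16257 genes (37.7%) had an adjusted p under 0.05. FLASH was the higher group in 2719 of all genes tested (16.7%) and the lower in 3416 (21.0%). A change of more than 2-fold was found in 1219 higher and 1979 lower genes, and one of more than 16-fold in 97 higher and 33 lower genes. The libraries of the groups did not overlap in 2243 genes (13.8%). Over all genes tested, the log2 fold change had a median of -0.07. With library totals in place of TMM factors (scaling factors that assume most genes did not change), that median was -0.44, and 17.4% of the called genes were higher instead of 44.3%, so directions below are relative to the bulk of genes under TMM scaling. Below, a value in parentheses after a gene is its log2 fold change, FLASH minus control, with its standard error (SE), "rose" and "fell" mean an adjusted p under 0.05 over all genes, and levels are in CPM, the usual measure of a gene's counts per library total, here with TMM-scaled totals.

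Library depth was 24342264 to 27765521 estimated counts in controls and 23079661 to 30196591 in FLASH. The scaling factors did not overlap, at 1.06 to 1.25 in controls and 0.826 to 0.948 in FLASH, and the share of counts in the 10 most abundant genes was 7.54 to 11.7% in controls and 12.6 to 16.2% in FLASH. Control 6 stood apart from the other controls on the first 2 principal components, and it and FLASH 1 had the most negative trend of expression with transcript length in their groups (-0.41 and -0.34 log2 units per doubling of length). Without both, 6737 genes passed, and leaving out single libraries gave from 5074 (without control 2) to 7164 (without control 6). All 7 listed markers of proximal and all 6 of distal small intestine passed the filter on low counts. Of the proximal markers 5 rose and 1 fell, and of the distal markers 3 rose and none fell, where 16.7% of all genes rose and 21.0% fell. For the proximal marker Lct, the enterocyte lactase gene, the lowest, median and highest level was 408, 702 and 1534 CPM in controls. In FLASH it was 344, 1174 and 2309 CPM. Of 6 stomach genes none passed that filter, of 8 exocrine pancreas genes 2 did, and of 6 colon genes 4 did, Car1 and Aqp8 being the others. No tested marker of red blood cells, colon or pancreas rose or fell.

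**Figure D1:**
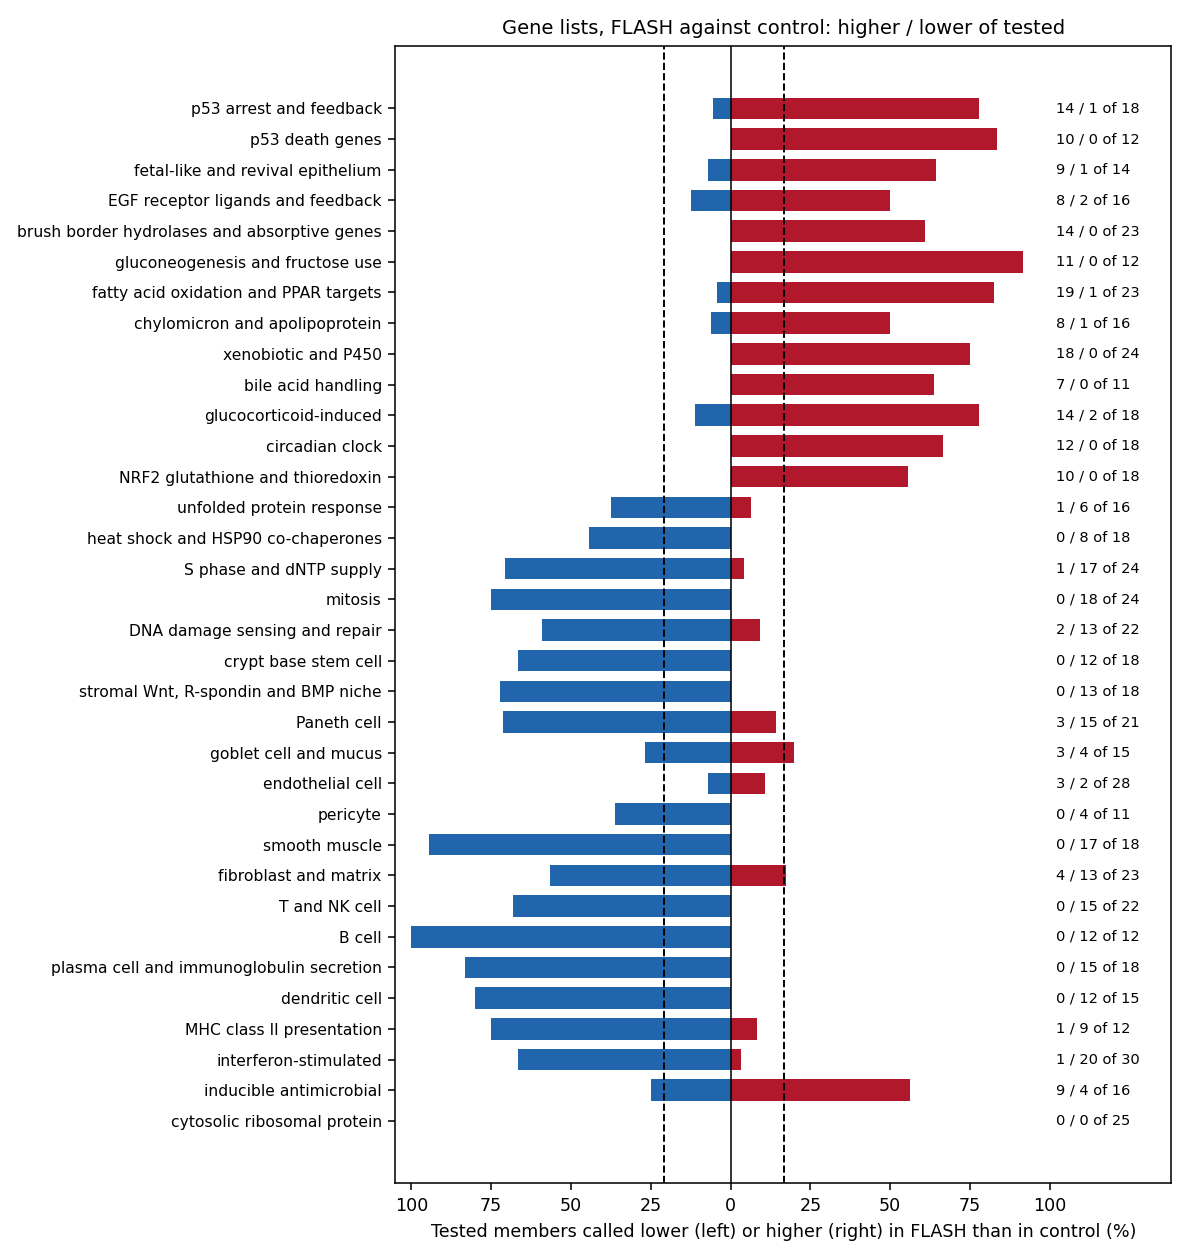
Share of tested members of 34 gene lists called lower (blue, left) or higher (red, right) in FLASH than in control, in percent of the members tested, with the counts at the right edge. Dashed lines mark the shares among all genes tested, 21.0% lower and 16.7% higher; the fuel, drug metabolism, glucocorticoid and p53 lists reach to the right, the lymphocyte, muscle, crypt and cell cycle lists to the left, and the ribosomal protein list has no called member.

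Genes that p53 is known to switch on rose for the most part. In the list of p53 genes of arrest and feedback, 14 of 18 members rose and 1 fell, with a median log2 fold change of 1.4, where 16.7% of all genes rose. In the list of p53 death genes, 10 of 12 tested members rose and none fell (median 1.16). Bax, which opens pores in the outer mitochondrial membrane, had a lowest, median and highest level of 18.1, 20.9 and 35.8 CPM in controls and 65.8, 69.3 and 116 CPM in FLASH. Every FLASH library lay above every control library (log2 fold change 1.76 ± 0.19, adjusted p = 2.0e-06). Plk2, a stress-induced kinase, was at 4.68, 7.08 and 13.3 CPM in controls and 25.8, 36.0 and 53.3 CPM in FLASH, again with no overlap (2.23 ± 0.22). Among the other risen arrest genes were Ccng1 (2.19 ± 0.19), which encodes cyclin G1, Trp53inp1 (1.66 ± 0.18), a cofactor of p53, and Ei24 (1.26 ± 0.16). Risen death genes included Bbc3 (1.51 ± 0.17), which encodes the BH3-only protein PUMA, Pidd1 (1.04 ± 0.17), of the caspase-2 platform, and Pmaip1 (3.18 ± 0.46), which encodes NOXA and was at 2.33 without FLASH 1 and FLASH 2. The death receptor gene Fas, also a p53 target, was at -0.0055 ± 0.27 (adjusted p = 0.987).

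The member of the arrest list that fell was Ccnd1 (-1.60 ± 0.24), which encodes cyclin D1, the cyclin of entry into the cell cycle. In the BCL2 family, 4 of 11 tested members rose, and 2 fell, or 1 when FLASH 1, FLASH 4, FLASH 5, control 1 or control 5 was left out. Of all genes 16.7% rose and 21.0% fell. The survival genes Mcl1 (0.88 ± 0.15) and Bcl2l1 (0.95 ± 0.14) rose, as did the death gene Bcl2l11 (1.06 ± 0.24), which encodes BIM, while Bid (-1.39 ± 0.28) fell. Some genes of these lists differed against CONV as well: Bcl2l11 was higher in FLASH than in CONV by 1.29 ± 0.26 (adjusted p = 0.00279) and Pmaip1 by 2.07 ± 0.47 (adjusted p = 0.00550). Phlda3 (-0.87 ± 0.16, FLASH minus CONV), Ccng1 (-1.29 ± 0.19) and Eda2r (-0.92 ± 0.21) were lower than in CONV. Against control, Phlda3 and Eda2r rose like Ccng1, by 3.14 and 3.77 (adjusted p = 8.2e-10 and 9.5e-09). Of all genes, 19.8% passed between FLASH and CONV, 9.88% higher and 9.91% lower in FLASH, and this comparison uses the same FLASH libraries as the one against control.

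Genes of the dividing crypt compartment fell in each of the cell cycle lists. In the list of S phase and nucleotide supply 17 of 24 members fell and 1 rose (median -0.99, against -0.07 for all genes and 21.0% of all genes lower). Of 16 genes of G1 and S entry 9 fell and 1 rose, and of 24 mitosis genes 18 fell and none rose (median -0.85). E2f1, a transcription factor of S phase entry, was at 2.34, 4.0 and 5.86 CPM in controls and 0.562, 0.834 and 1.49 CPM in FLASH. Its groups did not overlap (log2 fold change -2.05 ± 0.28, adjusted p = 2.1e-05). Ccnd1 ranged over 64.8, 117 and 167 CPM in controls and 25.1, 35.1 and 69.8 CPM in FLASH, and the highest FLASH library lay just above the lowest control (adjusted p = 6.1e-05). Other falls were E2f2 (-1.84 ± 0.23), the cyclin-dependent kinase gene Cdk4 (-1.01 ± 0.18), the thymidylate synthase gene Tyms (-1.02 ± 0.20), the primase gene Prim1 (-1.38 ± 0.20) and the uracil-DNA glycosylase gene Ung (-2.44 ± 0.23), one of the 6 fallen genes with the smallest p. The S phase exception was Rrm2, the small subunit of ribonucleotide reductase, which rose to 60.4, 239 and 338 CPM in FLASH from 18.1, 21.5 and 23.8 CPM and was higher than in CONV by 2.53 ± 0.34 (adjusted p = 2.1e-04).

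Mki67, the gene of the proliferation marker Ki-67, was at 26.6, 107 and 156 CPM in controls and 13.4, 21.2 and 47.8 CPM in FLASH. The highest FLASH library overlapped the lowest control (log2 fold change -1.84 ± 0.38, adjusted p = 9.4e-04). The kinesin gene Kif11 (-0.85 ± 0.16), the topoisomerase gene Top2a (-1.13 ± 0.23) and the cyclin gene Ccna2 (-0.90 ± 0.14) fell, whereas Cdk1 and Ccnb1, which encode the kinase and the cyclin that start mitosis, were at -0.26 ± 0.20 (adjusted p = 0.329) and -0.14 ± 0.16 (adjusted p = 0.528). With library totals both passed, at -0.64 and -0.52. Mitosis genes are known to share promoter elements, the CHR (cell cycle genes homology region, letters TTTGAA) and CCAAT boxes, through which p53 represses them by way of p21. 3 fallen genes are printed to show these elements, as the 250 bases before the annotated start (RefSeq, GRCm38.p6, gene strand, 5′ to 3′), with TTTGAA and CCAAT or their reverse complements in capitals.
Mki67: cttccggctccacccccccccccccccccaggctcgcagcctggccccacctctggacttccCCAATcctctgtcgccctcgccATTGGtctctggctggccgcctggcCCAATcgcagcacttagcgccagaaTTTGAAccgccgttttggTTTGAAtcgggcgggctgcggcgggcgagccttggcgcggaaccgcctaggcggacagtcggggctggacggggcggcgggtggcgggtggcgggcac
Top2a: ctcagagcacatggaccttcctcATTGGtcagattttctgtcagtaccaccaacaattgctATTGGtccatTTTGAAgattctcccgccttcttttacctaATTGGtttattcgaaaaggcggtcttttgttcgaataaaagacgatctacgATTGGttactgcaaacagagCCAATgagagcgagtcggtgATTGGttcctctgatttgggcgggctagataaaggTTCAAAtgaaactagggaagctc
Kif11: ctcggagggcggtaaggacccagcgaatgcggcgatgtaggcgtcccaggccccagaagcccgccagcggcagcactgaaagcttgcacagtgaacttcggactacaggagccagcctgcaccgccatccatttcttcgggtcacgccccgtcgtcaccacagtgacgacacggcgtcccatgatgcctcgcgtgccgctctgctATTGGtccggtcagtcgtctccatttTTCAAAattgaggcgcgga

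These windows lie at chr7:135716380-135716629, minus strand, chr11:99024190-99024439, minus strand and chr19:37376132-37376381, plus strand. Of the 20 mitosis genes with a window in the table, 8 held TTTGAA (40.0%) on either strand and 17 held CCAAT (85%). Among all 11776 tested genes with a window the shares were 13.3% and 40.0%. The mitosis genes holding an element included Cdk1 (both) and Ccnb1 (CCAAT), which did not pass against control. Whether the elements bear on the falls was not tested. Of 22 genes of DNA damage sensing and repair 13 fell and 2 rose. Falls included Exo1 (-1.29 ± 0.23), a nuclease of mismatch repair, Rad54l (-1.46 ± 0.28), of homologous recombination, and the checkpoint kinase gene Atr (-1.10 ± 0.21), while Mgmt (1.83 ± 0.28), which removes alkyl groups from guanine, and Ercc5 (1.09 ± 0.16), of nucleotide excision repair, rose.

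Markers of crypt base stem cells fell in 12 of 18 cases and none rose (median -1.17). Olfm4, a marker of crypt base columnar stem cells, was at 522, 785 and 947 CPM in controls and 13.4, 37.3 and 96.4 CPM in FLASH. No FLASH library reached the lowest control (log2 fold change -3.94 ± 0.49, adjusted p = 9.5e-06). Ascl2, the transcription factor gene that maintains stem cell identity, was at 2.87, 3.65 and 5.26 CPM in controls and 0.355, 0.850 and 2.11 CPM in FLASH. It fell (-2.06 ± 0.40) without overlap and was also lower than in CONV (-1.89 ± 0.41, FLASH minus CONV, adjusted p = 0.00433). Lgr5 (-2.10 ± 0.37), the receptor for R-spondins, Myb (-2.40 ± 0.23), Smoc2 (-1.37 ± 0.19), Tnfrsf19 (-1.69 ± 0.30) and Cdca7 (-1.53 ± 0.15) fell as well. In the surrounding stroma 13 of 18 Wnt, R-spondin and BMP niche genes fell and none rose. They included Rspo3 (-1.02 ± 0.31), a ligand of Lgr5, Wnt2b (-1.35 ± 0.36), and the BMP antagonists Grem1 (-2.42 ± 0.52) and Chrdl1 (-2.01 ± 0.43). Grem1 and Rspo3 were also lower than in CONV (FLASH minus CONV -2.01 ± 0.53 and -1.16 ± 0.33).

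Genes of the fetal-like, regenerating epithelium and of EGF receptor ligands rose more often than they fell. Of 14 tested genes of the fetal-like list 9 rose and 1 fell (median 0.81), and 5 rose without FLASH 1 and FLASH 2. Ly6a, which encodes the surface protein Sca-1, was at 18.6, 25.7 and 46.5 CPM in controls and 46.8, 83.0 and 166 CPM in FLASH. The groups did not overlap (log2 fold change 1.84 ± 0.33, adjusted p = 2.7e-04). S100a6 (1.62 ± 0.25) and Il1rn (1.99 ± 0.36), the interleukin-1 receptor antagonist gene, rose too. Clu, the marker gene of revival stem cells, was at 7.19, 19.3 and 283 CPM in controls and 36.4, 58.8 and 96.2 CPM in FLASH, and did not pass (-0.10 ± 0.65, adjusted p = 0.922). Without control 2, which held its highest level, Clu was at 1.37 (adjusted p = 0.0402). Of 16 tested genes of EGF receptor ligands and feedback 8 rose and 2 fell. That count was 5 without FLASH 6, FLASH 7 or control 3, and 4 with library totals. The ligand genes Areg (3.10 ± 0.50), Ereg (1.68 ± 0.35) and Btc (1.68 ± 0.29) and the feedback inhibitor Errfi1 (2.65 ± 0.33) rose, with Areg at 2.49 without FLASH 1 and FLASH 2. Egfr itself was at 0.10 ± 0.29 (adjusted p = 0.811). 

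**Figure D2:**
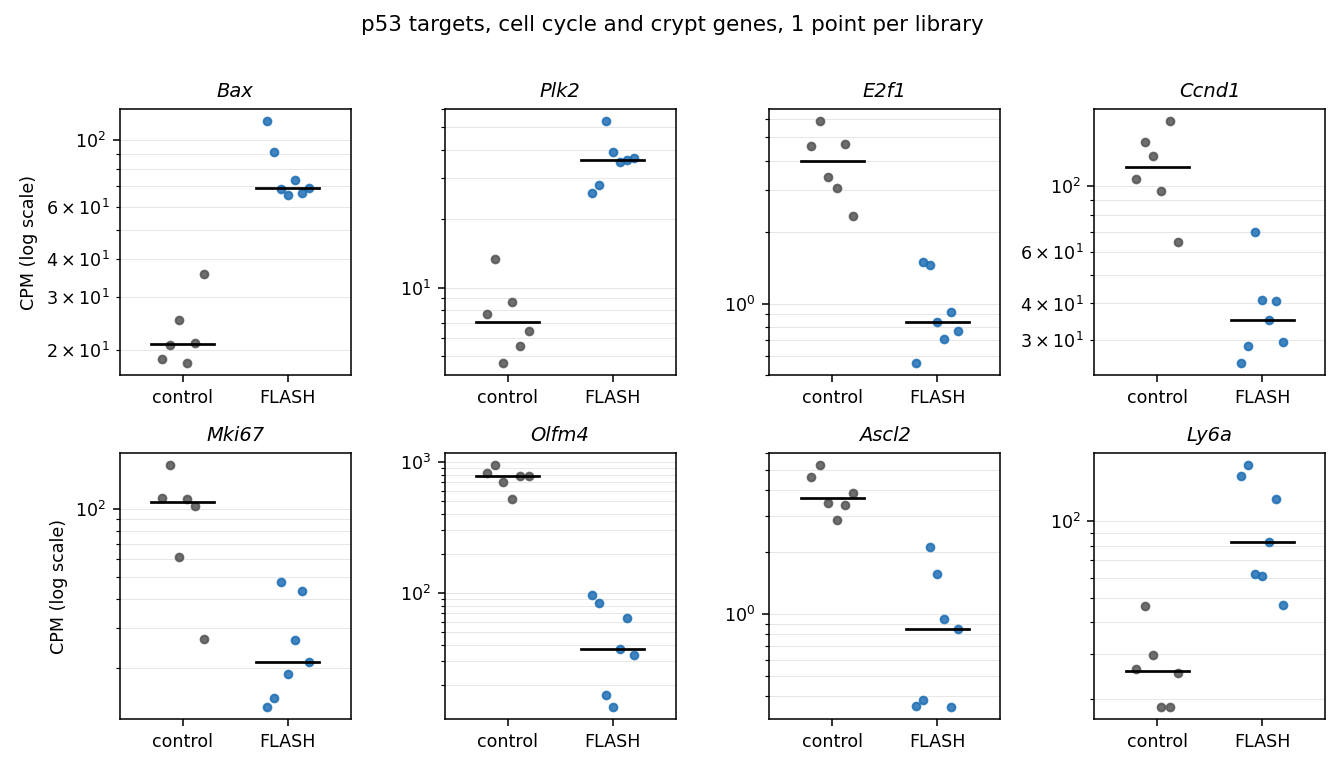
CPM (log axis) of 8 genes in each of the 6 control (grey) and 7 FLASH (blue) libraries, with the median as a bar. The p53 targets Bax and Plk2 and Ly6a lie higher in every FLASH library than in any control, E2f1, Olfm4 and Ascl2 lie lower in every FLASH library, and the ranges of Ccnd1 and Mki67 touch.

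Most Paneth cell genes fell. Of 21 members of the list 15 fell, 3 rose and 16 had no overlap between the groups, against 13.8% of all genes (median -1.27), and 14 were lower than in CONV, where 9.91% of all genes were. Lyz1, the Paneth cell lysozyme gene, was at 4956, 6910.2 and 7756 CPM in controls and 1234, 2096 and 3834 CPM in FLASH. Every FLASH library lay under every control (log2 fold change -1.60 ± 0.22, adjusted p = 2.5e-05), and FLASH lay lower than CONV (-1.30 ± 0.23, FLASH minus CONV, adjusted p = 0.00116). The mucosal pentraxin gene Mptx2 was at 236, 436 and 581 CPM in controls and 42.8, 61.9 and 139.8 CPM in FLASH (-2.46 ± 0.32), also without overlap. Alpha-defensin genes fell in 15 of 19 tested cases, among them Defa24 (-1.27 ± 0.23), Defa23 (-1.76 ± 0.25) and Defa17 (-1.90 ± 0.24). The matrix protease gene Mmp7 (-0.84 ± 0.18), which activates these peptides, and the lectin gene Itln1 (-1.19 ± 0.20) fell too. Defensin genes are near-identical neighbours on chromosome 8, so their reads may be divided among copies. The members that rose were the antimicrobial lectin genes Reg3g (2.12 ± 0.41) and Reg3b (2.30 ± 0.46), the latter at 1.71 without FLASH 1 and FLASH 2, and Guca2b (2.39 ± 0.31), the uroguanylin gene of fluid secretion.

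Other secretory lineages gave mixed counts. Of 18 tested enteroendocrine genes 5 rose and none fell, 3 with library totals. Cck (1.98 ± 0.39), the cholecystokinin gene, Tph1 (1.5 ± 0.21), of serotonin synthesis, and Neurod1 (1.17 ± 0.25) rose, while the hormone genes Gip and Gcg were at 0.02 ± 0.33 and 0.0088 ± 0.15 (adjusted p = 0.966 and 0.968). With library totals Gcg was at -0.36 (adjusted p = 0.0476). In the goblet cell and mucus list 3 of 15 genes rose and 4 fell, where 16.7% of all genes rose and 21.0% fell. The count that fell was 2 in 7 fits that left out FLASH 1, FLASH 2, FLASH 9, control 1, control 2 or control 4 singly, or FLASH 1 and FLASH 2 together, and 7 with library totals. Agr2 (-1.05 ± 0.22), which folds mucins, and Creb3l1 (-1.10 ± 0.29) fell, and the mucus genes Clca1 (0.47 ± 0.31, adjusted p = 0.241) and Fcgbp (-0.16 ± 0.38, adjusted p = 0.770) did not pass. Of 14 tested tuft cell genes 5 rose, 2 without FLASH 5 and 1 with library totals. The tuft cell marker Dclk1 was at -0.31 ± 0.47 (adjusted p = 0.640).

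Genes of fuel use in absorptive enterocytes rose in large numbers. Of 12 genes of gluconeogenesis and fructose use 11 rose and none fell (median 1.78). Of 23 tested genes of fatty acid oxidation and PPAR targets 19 rose and 1 fell (median 1.31), and of 16 genes of chylomicron assembly 8 rose and 1 fell, the last not without control 2. Pck1, the rate-limiting enzyme gene of gluconeogenesis, was at 29.3, 50.8 and 61.5 CPM in controls and 684, 1639 and 2777 CPM in FLASH. The groups were far apart without overlap (log2 fold change 5.26 ± 0.39, adjusted p = 5.5e-08), and FLASH was above CONV by 4.05 ± 0.40 (adjusted p = 4.3e-05). G6pc, the catalytic subunit gene of glucose-6-phosphatase, was at 16.3, 19.3 and 33.3 CPM in controls and 492, 862 and 1166 CPM in FLASH (5.15 ± 0.40), with no overlap. Pdk4, a kinase that keeps pyruvate out of the citric acid cycle, was at 2.48, 5.61 and 9.46 CPM in controls and 189, 638 and 716 CPM in FLASH. It rose by 6.51 ± 0.49 (adjusted p = 5.5e-08) and was above CONV by 4.12 ± 0.47. The fructose genes Khk (1.31 ± 0.33) and Slc2a5 (3.46 ± 0.47) and the glucose transporter gene Slc2a2 (2.47 ± 0.34) rose.

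In fatty acid handling Ppara (2.53 ± 0.26), the fatty acid sensor, Acadl (2.60 ± 0.24), of beta-oxidation, the thioesterase gene Acot1 (4.24 ± 0.48) and the lipase inhibitor gene Angptl4 (4.55 ± 0.45) rose, and Ppara and Angptl4 were above CONV by 2.35 ± 0.28 and 3.05 ± 0.45. Slc16a6, a gene of the monocarboxylate transporter family, had the smallest p of all genes. It was at 21.6, 24.7 and 35.0 CPM in controls and 299, 359 and 485 CPM in FLASH, a wide gap between tight groups (3.93 ± 0.18, adjusted p = 1.6e-10). Of the chylomicron genes Apoa4 (2.64 ± 0.38), Apoa1 (1.54 ± 0.27), Mttp (1.79 ± 0.18), which loads lipid on apolipoprotein B, and Dgat2 (2.73 ± 0.25) rose. Apoa4, a gene of the lipid-carrying particle, was at 1468, 5172 and 10155 CPM in controls and 14685, 29826 and 46165 CPM in FLASH. Brush border and absorptive genes rose in 14 of 23 cases, 7 with library totals, among them Sis (0.73 ± 0.21), the sucrase-isomaltase gene, which was at 0.38 (adjusted p = 0.134) with library totals. Lct (0.35 ± 0.38, adjusted p = 0.496), Dpp4 (0.26 ± 0.13, adjusted p = 0.137) and Anpep (0.31 ± 0.27, adjusted p = 0.390) did not pass. Amino acid and peptide transporter genes rose in 10 of 19 cases, with Slc6a19 (2.14 ± 0.21), of neutral amino acids.

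Genes of drug metabolism and bile acid handling rose too. Of 24 tested xenobiotic and P450 genes 18 rose and none fell (median 1.09), and of 11 tested bile acid genes 7 rose. Cyp2b10, a target of the receptor CAR, was at 13, 56.6 and 94.1 CPM in controls and 977, 1711 and 2190.4 CPM in FLASH. It rose without overlap (4.93 ± 0.43, adjusted p = 3.1e-07) and was above CONV by 1.94 ± 0.40. Cyp3a44 was at 0.662, 2.01 and 3.87 CPM in controls and 76.6, 118 and 142 CPM in FLASH (5.60 ± 0.38), and Cyp3a11 (3.32 ± 0.50) and Cyp2c29 (7.20 ± 0.82) rose, with Cyp2c29 at 8.65 without control 6. Near copies among P450 genes can share reads. The receptor genes Nr1i2 (2.04 ± 0.22), which encodes PXR, and Nr1h4 (1.91 ± 0.29), which encodes FXR, rose, as did Nr0b2 (5.42 ± 0.63), the FXR target SHP, and the exporter gene Abcc2 (1.92 ± 0.31). Of 18 NRF2 genes of glutathione and thioredoxin 10 rose and none fell, with Gclc (2.58 ± 0.31), of glutathione synthesis, Hmox1 (2.31 ± 0.29) and Nfe2l2 (0.93 ± 0.18), NRF2 itself.

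The glucocorticoid list held genes that these hormones are known to induce. It also held the receptor gene Nr3c1 and the steroid enzyme genes Hsd11b1, Hsd11b2, Cyp11a1 and Cyp11b1, so its counts are not of induced genes alone. Of 18 tested members 14 rose and 2 fell (median 2.21), where 16.7% of all genes rose. Of the 18, 13 were higher than in CONV, where 9.88% of all genes were, and none was lower. Fkbp5, a co-chaperone that restrains the glucocorticoid receptor, was at 5.22, 10.6 and 23.7 CPM in controls, 42.5, 21.2, 39.4, 60.2 and 19.7 CPM in CONV and 154, 433 and 552 CPM in FLASH. The FLASH libraries lay above all others (log2 fold change 4.90 ± 0.41 against control and 3.4 ± 0.41 against CONV, adjusted p = 2.2e-07 and 1.4e-04). Zbtb16, the transcription factor PLZF, was at 0.0730, 0.843 and 1.25 CPM in controls, 1.47, 0.349, 1.71, 1.49 and 0.532 CPM in CONV and 5.42, 46.2 and 62.0 CPM in FLASH. It rose by 5.59 ± 0.60 and differed from CONV by 5.10 ± 0.63. For the kinase gene Sgk1 the levels were 41.1, 103 and 167 CPM in controls, 163, 100.0, 92.8, 152 and 118 CPM in CONV and 290.3, 1657 and 2249 CPM in FLASH. CONV and control ranges overlapped and FLASH lay above both (3.80 ± 0.44 against control, 3.56 ± 0.47 against CONV). The leucine zipper gene Tsc22d3 (2.32 ± 0.24), which encodes GILZ, and the metallothionein gene Mt1 (3.69 ± 0.53) rose too, Mt1 above CONV by 2.89 ± 0.55.

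Clock genes rose in 12 of 18 cases and none fell (median 1.44), and 7 were higher than in CONV. Per1, which is also a glucocorticoid target, was at 4.28, 12.0 and 26.7 CPM in controls, 5.97, 8.34, 17.8, 8.08 and 7.66 CPM in CONV and 28.3, 48.7 and 84.6 CPM in FLASH. It rose by 2.09 ± 0.41 (adjusted p = 6.6e-04) and was above CONV by 2.47 ± 0.45 (adjusted p = 0.00147). The clock output genes Tef (2.57 ± 0.24) and Hlf (3.17 ± 0.40) and the repressor genes Ciart (4.01 ± 0.47) and Per2 (2.24 ± 0.30) rose. Clock, the activator gene, was at 0.13 ± 0.14 (adjusted p = 0.473), and its partner Arntl at -0.76 ± 0.34 (adjusted p = 0.0885), which passed without FLASH 1 (-0.96, adjusted p = 0.0344) and without FLASH 2 (-0.94, adjusted p = 0.0408), and with library totals (-1.15, adjusted p = 0.0131). The heterodimer of these proteins is known to bind the E-box CACGTG. The 250 bases before the start are printed for Per1 (chr11:69098699-69098948, plus strand) and Ciart (chr3:95882229-95882478, minus strand) from the same RefSeq table, with CACGTG in capitals.
Per1: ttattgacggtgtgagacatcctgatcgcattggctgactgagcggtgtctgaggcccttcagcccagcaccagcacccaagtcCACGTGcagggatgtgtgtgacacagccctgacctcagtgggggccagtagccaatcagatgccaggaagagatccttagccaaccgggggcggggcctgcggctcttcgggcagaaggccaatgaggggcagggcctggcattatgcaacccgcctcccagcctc
Ciart: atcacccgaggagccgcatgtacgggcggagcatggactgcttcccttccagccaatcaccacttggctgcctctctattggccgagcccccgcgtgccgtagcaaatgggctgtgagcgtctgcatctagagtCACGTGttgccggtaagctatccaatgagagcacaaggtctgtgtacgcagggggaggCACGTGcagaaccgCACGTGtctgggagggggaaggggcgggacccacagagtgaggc

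The table held a window for 15 of the 18 clock genes, and 5 of them (33.3%) contained CACGTG, against 9.40% of all tested genes with a window. Per1 had 2 windows in that table, and the one printed was chosen for having the most matches. It contained CACGTG once, and the Ciart window at 3 places. Whether the E-box bears on the rises was not tested.

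**Figure D3:**
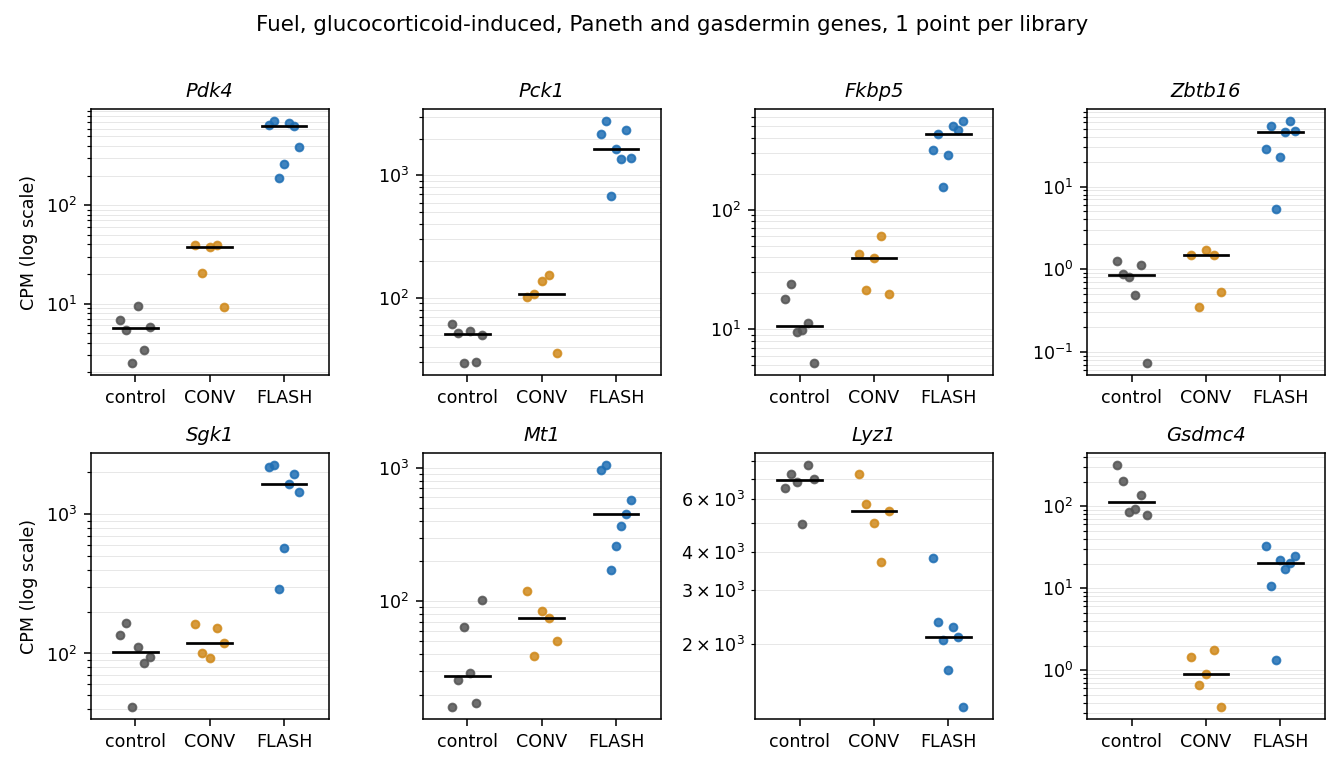
CPM (log axis) of 8 genes in 6 control (grey), 5 CONV (orange) and 7 FLASH (blue) libraries, with the median as a bar. Pdk4, Pck1, Fkbp5, Zbtb16, Sgk1 and Mt1 are highest in FLASH, Lyz1 is lowest in FLASH, and Gsdmc4 is high in control, intermediate in FLASH and lowest in CONV.

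Protein folding genes went down in part. Of 16 unfolded protein response genes 6 fell and 1 rose, 11 fell with library totals, and 10 were lower than in CONV. Of all genes 21.0% fell against control and 9.91% were lower than in CONV. CONV minus control, the median log2 fold change was 0.32 in this list and 0.41 in the heat shock list. It was -0.04 for all genes. Pdia6 (-1.08 ± 0.17) and Pdia4 (-1.11 ± 0.30), disulfide isomerase genes, and the chaperone gene Hsp90b1 (-0.82 ± 0.21) fell, and Herpud1 (2.19 ± 0.26), of protein disposal from the endoplasmic reticulum, rose. Sdf2l1, a chaperone cofactor gene, was lower than in CONV (-2.22 ± 0.29, FLASH minus CONV, adjusted p = 1.9e-04). Of 18 heat shock and co-chaperone genes 8 fell, 5 with a filter of 1 count, and 11 were lower than in CONV. Among these, Fkbp4 (-1.22 ± 0.17), a co-chaperone of steroid receptors, Chordc1 (-1.16 ± 0.32) and Hsf1 (-1.03 ± 0.18), the heat shock factor gene, fell. The inducible heat shock gene Hspa1a was at 0.08 ± 0.64 (adjusted p = 0.934). Of 15 tested hypoxia-inducible genes 6 rose and 1 fell, or 3 fell without FLASH 5 or control 6. The risen genes included Ndrg1 (2.98 ± 0.29), Pgk1 (1.35 ± 0.20) and Vegfa (1.23 ± 0.16), the vascular growth factor gene. The immediate early genes Fos (0.10 ± 0.23, adjusted p = 0.766), Jun (-0.14 ± 0.22, adjusted p = 0.641) and Egr1 (-0.035 ± 0.33, adjusted p = 0.944) did not pass.

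The series title names vascular function, and most endothelial genes did not pass the test. Of 28 endothelial genes 3 rose, 2 fell and 23 did not pass (median -0.25), shares under those of all genes in both directions. Without control 2, 6 rose and 1 fell. Pecam1, the pan-endothelial adhesion gene, was at 17.0, 29.5 and 114 CPM in controls and 23.9, 33.2 and 49.9 CPM in FLASH. The ranges overlapped widely (log2 fold change -0.29 ± 0.35, adjusted p = 0.547), and Cdh5 (-0.43 ± 0.48, adjusted p = 0.508), Kdr (-0.56 ± 0.47, adjusted p = 0.371) and Plvap (-0.18 ± 0.34, adjusted p = 0.711) did not pass either. The risen members were Gpihbp1 (1.68 ± 0.36), the capillary anchor of lipoprotein lipase, Apln (1.10 ± 0.26), which encodes the peptide apelin, and Lyve1 (0.74 ± 0.25), a lymphatic marker. Lyve1 did not pass with library totals (0.35, adjusted p = 0.306), without FLASH 7 (0.63, adjusted p = 0.0512) or without control 3 (0.66, adjusted p = 0.0553). The fallen members were Aplnr (-3.22 ± 0.52), the apelin receptor gene, at -2.48 without control 2, and Tek (-1.14 ± 0.44), the angiopoietin receptor gene, which was named after its value was seen and was at -0.50 (adjusted p = 0.314) without control 2. Tek did not pass in 20 of the 31 alternatives tried. Apln was at 1.13, 2.05 and 2.58 CPM in controls, 1.99, 0.732, 0.968, 1.67 and 1.17 CPM in CONV and 3.13, 3.73 and 6.57 CPM in FLASH, and was above CONV by 1.69 ± 0.29 (adjusted p = 0.00104). Aplnr was at 2.74, 5.71 and 25.1 CPM in controls and 0.342, 0.711 and 2.07 CPM in FLASH. The ligand gene and the receptor gene moved in opposite directions against control, each without overlap.

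Of 19 tested genes of vascular activation and angiogenic signals 2 rose and 3 fell, where 16.7% of all genes rose and 21.0% fell. Of the 19, 6 were higher than in CONV, where 9.88% of all genes were. The chemokine gene Cxcl12 (-1.53 ± 0.27) and the growth factor gene Vegfb (-1.54 ± 0.21) fell, and the adhesion genes Vcam1 (-0.53 ± 0.39, adjusted p = 0.297) and Icam1 (-0.28 ± 0.27, adjusted p = 0.438) did not pass. Of 14 tested coagulation genes 3 rose and 2 fell, not far from the shares of all genes against control. Plat (2.27 ± 0.43), the tissue plasminogen activator gene, rose and was above CONV by 3.14 ± 0.48. Smooth muscle genes fell in 17 of 18 cases (median -1.41), although the groups overlapped in 16 of the 18 genes. The summed level of the list was 2765 to 7225 CPM in controls and 1126 to 2429 CPM in FLASH, without overlap, and no member was at 0. Acta2, the smooth muscle actin gene, was at 246, 405 and 706 CPM in controls and 66.3, 156 and 255 CPM in FLASH (-1.37 ± 0.36, adjusted p = 0.00550). Mylk (-1.65 ± 0.27), the myosin light chain kinase gene, Synm (-2.31 ± 0.51) and Smtn (-1.52 ± 0.33) fell too. None of the 18 passed between FLASH and CONV. Pericyte genes fell in 4 of 11 tested cases, a count that was 2 without control 1 or control 2, 2 with limma-trend on the authors' log2 values and 7 with library totals.

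**Figure D4:**
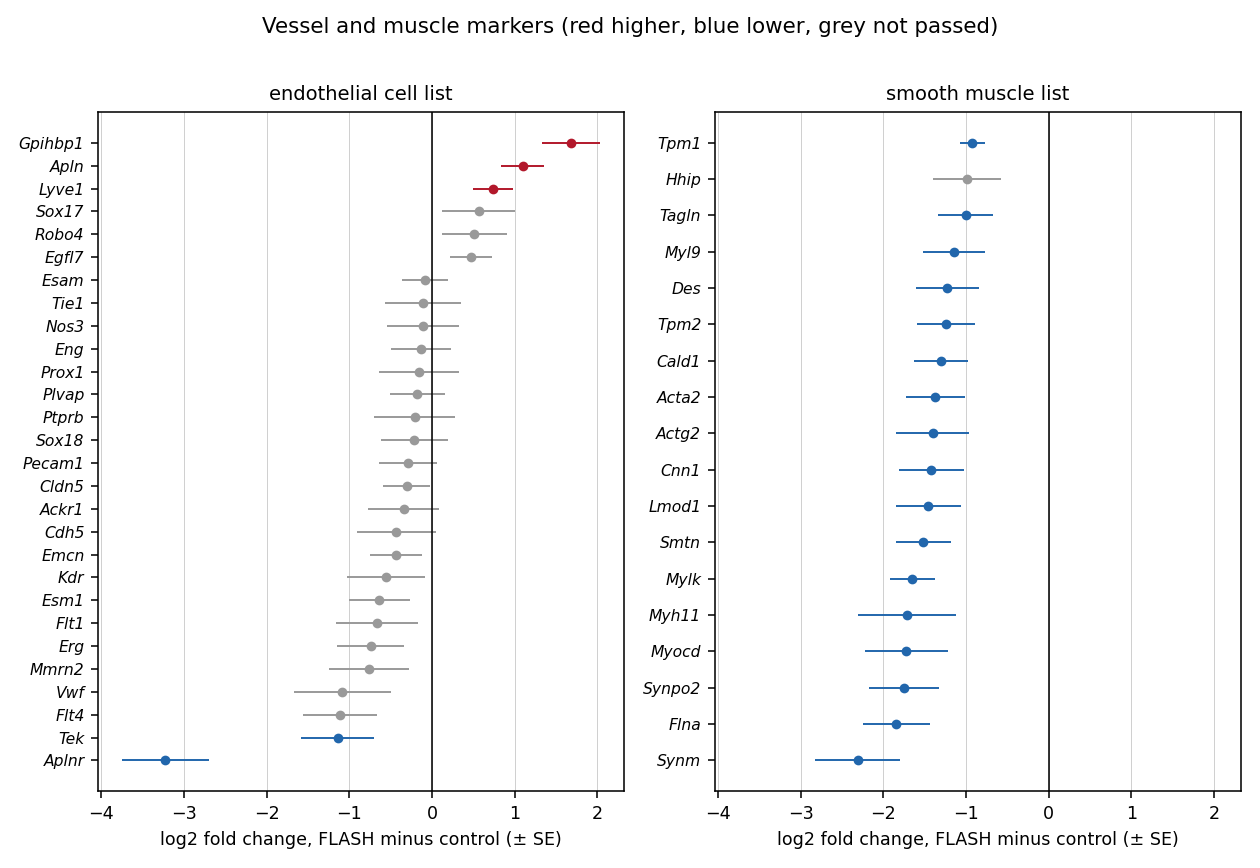
Log2 fold change, FLASH minus control, with its standard error for 28 endothelial genes (left) and 18 smooth muscle genes (right); red points rose, blue points fell and grey points did not pass. Endothelial genes lie on both sides of 0 with Aplnr at the far left, and all smooth muscle genes lie under 0.

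Of 23 tested fibroblast and matrix genes 13 fell and 4 rose. The collagen genes Col1a1 (-2.55 ± 0.62), Col3a1 (-2.06 ± 0.37) and Col6a3 (-3.33 ± 0.52) fell. Cemip (5.12 ± 0.42), of hyaluronan breakdown, Timp1 (1.80 ± 0.32), a protease inhibitor gene, and Mmp3 (2.22 ± 0.41), a stromelysin gene, rose. Cemip was at 0.731, 1.13 and 2.5 CPM in controls, 4.61, 3.35, 2.90, 5.51 and 3.30 CPM in CONV and 12.4, 46.1 and 81.6 CPM in FLASH. It lay higher in every FLASH library than in any control and above CONV by 3.55 ± 0.42 (adjusted p = 1.2e-04). Of 20 enteric neuron, glia and pacemaker genes 4 fell and 1 rose, where 21.0% of all genes fell and 16.7% rose. That fallen count was 12 with library totals, 8 without control 6, 7 without FLASH 7 or without CONV 6, 2 without control 1 or without FLASH 1 and FLASH 2, and 1 without control 2, and Vip (-1.62 ± 0.37), a neuropeptide gene, fell. Adipose tissue markers gave 1 higher, Fabp4 (2.0 ± 0.37), and 1 lower of 7 tested, with Adipoq (-1.01 ± 0.89, adjusted p = 0.394).

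Lymphocyte genes fell in large numbers. Of 16 listed B cell genes 4 did not pass the filter on low counts and 12 were under 1 CPM on average in FLASH. The 12 tested genes fell (10 fell without control 2), as did 15 of 18 plasma cell genes (median -2.46) and 15 of 22 tested T and NK cell genes (median -1.09), and none rose. With limma-trend on the authors' log2 values, 7 plasma cell genes fell. Those values hold a filtered gene set, and members missing from it could not be counted, so the 2 counts may rest on different members. Igha kept its call in all 30 alternatives that tested it. Cd79a, of the B cell receptor, was at 16.6, 17.6 and 65.1 CPM in controls, the highest being control 2, and 0.661, 1.70 and 4.40 CPM in FLASH. The groups did not overlap (log2 fold change -3.65 ± 0.50, adjusted p = 2.3e-05). The summed level of the B cell list was 49.1 to 603 CPM in controls, where control 2 was highest and the median was 64.3 CPM, and 8.57 to 52.2 CPM in FLASH. Igha, the constant region gene of IgA, was at 3889, 4814 and 8214 CPM in controls and 596, 877 and 1507 CPM in FLASH (-2.42 ± 0.29, adjusted p = 7.2e-06), and Jchain (-2.62 ± 0.38), which joins IgA dimers, fell. The share of counts in immunoglobulin genes ran from 1.16 to 2.16% in controls and from 0.137 to 0.374% in FLASH. Of 175 tested immunoglobulin and T cell receptor gene segments 116 fell and none rose. By type, 54 of 81 heavy chain, 52 of 79 kappa and 3 of 3 lambda variable segments fell. None of 2 T cell receptor segments did. Near-identical segments can share reads. Thy1, a T cell surface gene, was at 11, 14.2 and 23 CPM in controls and 2.83, 3.98 and 5.05 CPM in FLASH (-1.96 ± 0.26). Cd3e (-0.92 ± 0.25), Cd4 (-1.05 ± 0.26), Lck (-1.52 ± 0.31) and Cd5 (-3.89 ± 0.48) fell, and of the 22 genes 1 was higher than in CONV and none lower. Among Peyer patch and germinal centre markers, 5 of 9 were tested, 3 of them fell and 1 rose, and Cr2 and Fcer2a were among those that did not pass the filter on low counts.

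Antigen presentation and interferon genes fell as well. Lymphocyte and dendritic cell markers moved with them, and the part of fewer such cells in these falls was not tested. Dendritic cell genes fell in 12 of 15 cases, among them Xcr1 (-2.60 ± 0.35) and Clec9a (-3.42 ± 0.45), markers of cross-presenting dendritic cells. In the MHC class II list 9 of 12 genes fell and 1 rose. With library totals none rose. Ciita, the coactivator that switches MHC class II genes on, was at 27.2, 50.1 and 65.3 CPM in controls and 2.53, 6.40 and 10.5 CPM in FLASH. No library of one group reached the other (-2.92 ± 0.34, adjusted p = 4.7e-06). Of 30 interferon-stimulated genes 20 fell and 1 rose (median -0.94), and 13 fell without FLASH 1 and FLASH 2. Gbp6, a guanylate-binding protein gene, was at 29.7, 34.6 and 84.3 CPM in controls and 2.17, 4.67 and 7.16 CPM in FLASH (-3.26 ± 0.36). The chemokine gene Cxcl10 (-3.24 ± 0.45) fell, and Irf7 (0.0014 ± 0.24, adjusted p = 0.996) did not pass. The interferon-stimulated response element was searched on both strands as GAAA, any 2 bases and GAAA. Windows of 250 bases before the start are printed for the fallen genes Gbp2 (chr3:142620413-142620662, plus strand) and Cxcl10 (chr5:92348890-92349139, minus strand), with the match or its reverse complement in capitals.
Gbp2: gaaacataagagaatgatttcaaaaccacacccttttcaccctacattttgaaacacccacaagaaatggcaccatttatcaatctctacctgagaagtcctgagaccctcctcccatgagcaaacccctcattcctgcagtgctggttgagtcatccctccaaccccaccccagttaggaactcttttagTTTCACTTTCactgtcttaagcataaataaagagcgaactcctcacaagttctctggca
Cxcl10: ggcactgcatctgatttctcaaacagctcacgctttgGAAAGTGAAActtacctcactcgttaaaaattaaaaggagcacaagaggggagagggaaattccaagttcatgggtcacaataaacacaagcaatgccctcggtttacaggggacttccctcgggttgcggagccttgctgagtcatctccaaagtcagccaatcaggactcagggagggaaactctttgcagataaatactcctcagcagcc

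The element was found in 12 of 21 interferon-stimulated genes with a window (57.1%) and in 3.47% of all tested genes with one. Whether the element bears on the falls was not tested. Gbp2 (-1.66 ± 0.21) fell without overlap. In the MHC class I list 4 genes rose, 2 with library totals, and 9 fell of 18, with Psmb9 (-2.32 ± 0.37), an immunoproteasome subunit gene, and Nlrc5 (-1.85 ± 0.30), the class I regulator, on one side and H2-Q1 (1.48 ± 0.23) on the other. Of 18 macrophage and monocyte genes 7 fell and 4 rose, where 21.0% of all genes fell and 16.7% rose. Adgre1 (-1.60 ± 0.22), which encodes F4/80, and Ccr2 (-1.53 ± 0.32) fell, and Mertk (1.93 ± 0.19), a receptor for apoptotic cells, and Cd14 (1.54 ± 0.24) rose.

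**Figure D5:**
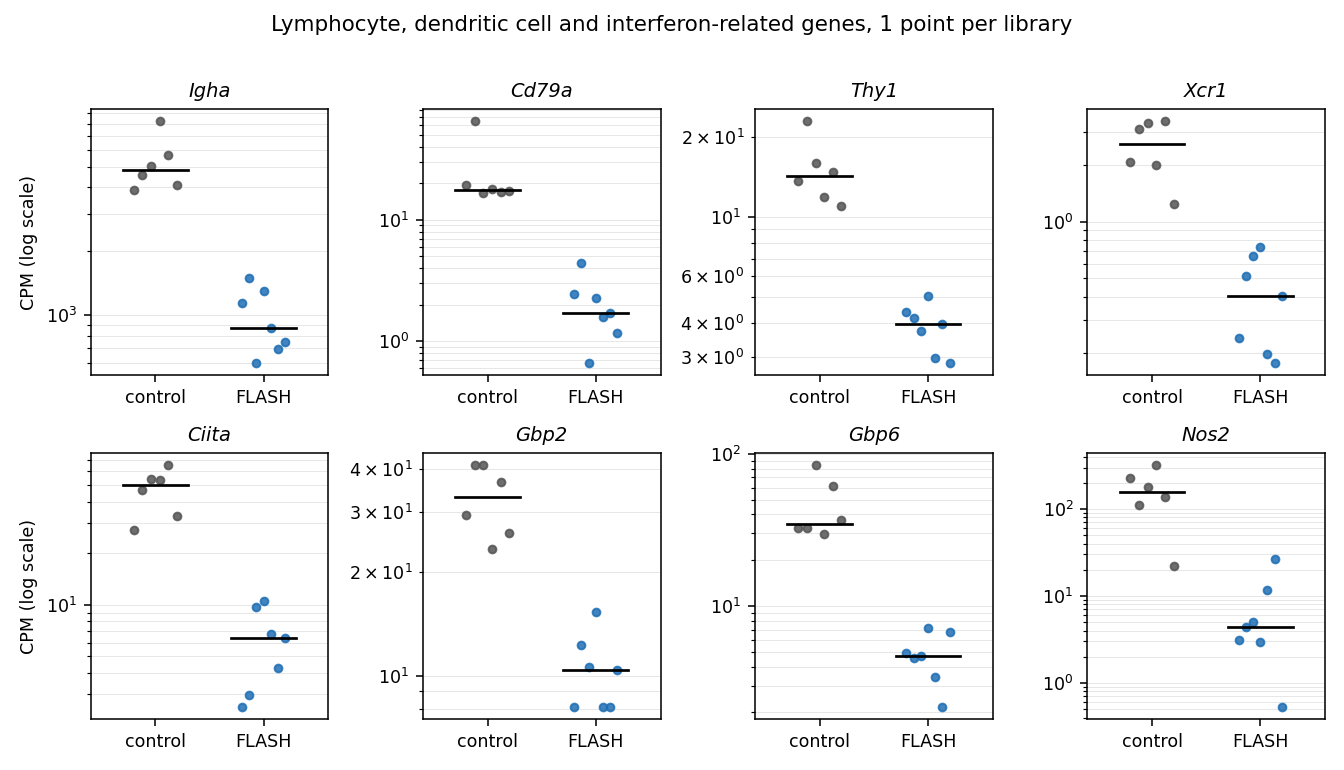
CPM (log axis) of 8 immune genes in each of the 6 control (grey) and 7 FLASH (blue) libraries, with the median as a bar. For Igha, Cd79a, Thy1, Xcr1, Ciita, Gbp2 and Gbp6 every FLASH library lies under every control, and Nos2 overlaps only through 1 low control library.

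Of 16 tested inducible antimicrobial genes 9 rose and 4 fell. Lcn2, the lipocalin that binds bacterial iron carriers, was at 0.876, 1.84 and 4.19 CPM in controls and 28.1, 54.1 and 366 CPM in FLASH. The groups did not overlap (5.97 ± 0.81, adjusted p = 2.2e-05), and the value was 4.79 without FLASH 1 and FLASH 2. Ltf, the lactoferrin gene, rose (3.88 ± 0.29). Nos2, the inducible nitric oxide synthase gene, was at 22.0, 157 and 319.6 CPM in controls and 0.526, 4.44 and 26.8 CPM in FLASH, where 1 low control reached into the FLASH range. It fell (-4.40 ± 0.87, adjusted p = 7.1e-04), and was at -5.15 without FLASH 7. Of 15 listed neutrophil genes 7 did not pass the filter on low counts, 4 rose and 3 fell, and 2 rose in a fit of the 2 groups alone. Ly6g, a neutrophil surface gene, had 1 count over the 6 control libraries and 3332 over the 7 FLASH libraries, a ratio of 3515 with an exact 95% counting interval of 630.5 to 138886. Such an interval covers counting error only.

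Ly6g lies on chromosome 15 in a region of Ly6-family genes that held several of the largest rises. Psca, a GPI-anchored surface protein gene (chromosome 15, 74714839 to 74717069, mm10), was at 0, 0.0680 and 0.219 CPM in controls and 25.7, 36.9 and 105 CPM in FLASH. FLASH libraries were all far above controls (9.17 ± 0.63, adjusted p = 2.2e-08; 9.85 without control 1). Gml (chromosome 15, 74813452 to 74818815) and Gml2 (chromosome 15, 74819071 to 74834871) rose by 7.25 ± 0.66 and 7.03 ± 0.60. Other genes among the largest rises were Sult6b2 (7.93 ± 1.01), a sulfotransferase gene, Cyp2d10 (6.2 ± 0.48) and Etnk2 (5.83 ± 0.51), an ethanolamine kinase gene. On the same chromosome, 5 of 11 tested members of the apolipoprotein L list fell, 8 with library totals. Grouped by symbol, 6 of 12 tested Apol genes fell. Apol10a (chromosome 15, 77477047 to 77491069) was at 336, 505 and 724 CPM in controls and 4.70, 6.34 and 17.9 CPM in FLASH. It fell without overlap (-6.02 ± 0.58, adjusted p = 7.4e-07) and was lower than in CONV (-3.68 ± 0.53, FLASH minus CONV). The gasdermin C genes Gsdmc2 (-2.44 ± 0.52), Gsdmc3 (-3.46 ± 0.65) and Gsdmc4 (-3.04 ± 0.51) fell against control and were above CONV by 4.0 ± 0.67, 3.51 ± 0.88 and 4.19 ± 0.64. Gsdmc4 was at 77.3, 114 and 317 CPM in controls, 1.47, 0.663, 0.893, 1.76 and 0.355 CPM in CONV and 1.32, 20.1 and 33.0 CPM in FLASH. FLASH 4 lay in the CONV range and the other FLASH libraries above it. These paralogs may share reads.

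Housekeeping lists were counted in the same way. None of 25 cytosolic ribosomal protein genes passed (median 0.20; 4 rose without control 6, among them Rpl10a at 0.69 and Rpl18 at 0.58). Of 21 nuclear respiratory chain genes 3 rose, near the 16.7% of all genes, and none fell, and 14 rose without control 6. Of 13 mitochondrially encoded genes 4 rose, 7 without control 2 and none with library totals, and 7 were higher than in CONV. Of 12 tested iron genes 6 rose and 2 fell, with Fth1 (1.43 ± 0.25), the ferritin heavy chain gene, and Tfrc (-1.32 ± 0.24), the transferrin receptor gene, on opposite sides. Genes with a large spread within FLASH at a mean of at least 20 CPM included Plb1, from 0.0810 to 669.9 CPM, and the defensin gene Defa31, from 0 to 185 CPM, and neither passed.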

How the data were processed

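RNA of whole jejunum was sequenced as stranded, single-end 100 bp mRNA libraries. The authors' deposited table holds expected counts per Ensembl gene, made with STAR and Salmon on mm10 per the submitters' processing notes, and their second table holds log2 values of a filtered gene set, for which the notes name edgeR 3.40.2 and limma 3.54.2. The gene annotation and quantification settings are not given in the sources used here. Symbols came from the file's IDs matched to a GENCODE table, which named 54495 of 54532 genes.

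Expected counts were rounded and fitted over all 18 libraries with edgeR 4.0.16 (R 4.3.3; filterByExpr, TMM scaling, robust quasi-likelihood F test), and p-values were adjusted by Benjamini-Hochberg over 16257 genes at 0.05. The SE is the absolute log2 fold change divided by the square root of F. CPM used TMM-scaled library sizes. Libraries of one group differed beyond sampling noise, so none was taken for a library deposited again, which does not show that they came from separate mice. The fit was tested on simulated counts. Groups came from the treatment labels. The gene lists, the members and the rule for naming genes (largest changes, smallest p, largest CPM differences, largest differences from CONV, most variable genes, and the first members and smallest p of each list) were chosen with earlier results of these data known. A list is described by its counts and median beside those of all genes, with no test of the list. Alternatives comprised DESeq2 1.42.0, limma 3.58.1 (voom, and trend on the authors' log2 values), other scalings and filters, a length offset, a replicate block and leaving out each library. Promoter sequences are RefSeq's, build GRCm38.p6. A missing match of a motif covers only the 250 bases read. Intervals on counts cover counting error only.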

Additional observations from a re-analysis of the deposited data

Results flagged for a closer look

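Among 418 sets of control or FLASH values of the genes named above, 24 held 1 library far from the others of its group by Dixon's criterion at 95% on log2(CPM + 0.5), and chance gives about 1 in 20. Control 6 held 7 such values. There, Ccng1 was at 130.0 CPM, with the others between 65.4 and 79.2 CPM. Creb3l1 was at 9.63 CPM, with the others between 22.7 and 35.7 CPM. Herpud1 was at 104 CPM, with the others between 71.5 and 80.0 CPM. Mcl1 was at 319 CPM, with the others between 194 and 221 CPM. Mgmt was at 1.93 CPM, with the others between 0.819 and 1.06 CPM. Rpl10a was at 696 CPM, with the others between 257 and 367 CPM. S100a6 was at 54.1 CPM, with the others between 23.6 and 31.2 CPM. FLASH 4 held 5 such values. There, Fkbp4 was at 144 CPM, with the others between 65.3 and 87.9 CPM. Gsdmc4 was at 1.32 CPM, with the others between 10.6 and 33.0 CPM. Hsp90b1 was at 512 CPM, with the others between 204 and 285 CPM. Hspa1a was at 22.3 CPM, with the others between 1.0 and 3.83 CPM. Zbtb16 was at 5.42 CPM, with the others between 22.5 and 62.0 CPM. FLASH 7 held 4 such values. There, Cyp2d10 was at 2.17 CPM, with the others between 6.82 and 12.8 CPM. Khk was at 275 CPM, with the others between 508 and 717 CPM. Slc12a2 was at 94.0 CPM, with the others between 50.6 and 60.8 CPM. Sult6b2 was at 4.19 CPM, with the others between 36.9 and 132 CPM. Control 2 held 3 such values. There, Cd79a was at 65.1 CPM, with the others between 16.6 and 19.2 CPM. Cxcl12 was at 81.8 CPM, with the others between 25.2 and 37.4 CPM. Il1rn was at 5.45 CPM, with the others between 2.44 and 3.25 CPM. In FLASH 1 Nlrc5 was at 1.77 CPM, with the others between 3.48 and 4.74 CPM. In FLASH 6 Il1rn was at 33.4 CPM, with the others between 7.25 and 11.9 CPM. In FLASH 9 E2f2 was at 5.75 CPM, with the others between 8.80 and 12.0 CPM. In control 1 Defa31 was at 74.3 CPM, with the others between 0 and 0.620 CPM. In control 3 Fosl1 was at 0.329 CPM, with the others between 0 and 0.0893 CPM. Calls that rest on these libraries are given without them above where the value moved by more than 1.5 times.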

How the results depend on the processing

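In up to 31 alternatives that refit single genes, 173 of the 178 called genes named above kept their call and direction in every one, and the others were Col1a1, Rspo3, Lyve1, Sis and Tek. Many were named for a large change or a small p, so this share does not describe all called genes. Of the 6135 genes called, 4217 were also called under the replicate block. The number was 4797 with library totals and 4688 without FLASH 1 and FLASH 2. The count of genes against control was 3198 (1219 higher and 1979 lower) when a 2-fold change was also required, and 1347 (732 and 615) against CONV. Library totals gave 1381 higher and 6550 lower genes against control and 911 higher and 2816 lower against CONV, where 24.4% of called genes were higher instead of 49.9%. A filter of 1 count gave 1038 lower genes against CONV. DESeq2 called 6726 genes against control, limma-voom 6149, limma-trend 5541, a transcript length offset 7074 and a fit of the 2 groups alone 5518. Leaving out 1 library gave 5074 to 7164 genes against control (2447 to 3347 higher, 2536 to 3817 lower) and 2171 to 3993 against CONV (1073 to 2014 higher, 1093 to 1979 lower). Without FLASH 1 and FLASH 2, 5221 genes passed against control. With 1 library left out Clu ran from -0.34 without control 6 to 1.37 without control 2, it was at -0.56 with library totals, and Gcg was at -0.36 with library totals, so both changed sign, and the cause was not tested.

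Deviations of same-numbered control and FLASH libraries from their group means correlated at -0.27, -0.03, 0.23, -0.06 and -0.20 for numbers 1, 2, 4, 5 and 6. The best-matching FLASH library had the same number only for number 4. These correlations cannot exclude a shared day or litter, and the labels do not say what a number marks. The numbers were not treated as pairs in the main fit. A fit with the replicate number as a block gave 4279 genes against control (2022 higher and 2257 lower) and 1569 against CONV (795 and 774). Under the block Col1a1 (adjusted p = 0.0727), Rspo3 (adjusted p = 0.0951), Lyve1 (adjusted p = 0.0625) and Tek (adjusted p = 0.158) did not pass. Fallen members under the block numbered 7 of the fibroblast and matrix list, 4 of the heat shock list, 2 each of the goblet, integrated stress and enteric neuron lists and 1 of the pericyte list, and risen members 4 of the EGF receptor list and 1 each of the tuft cell and mitochondrially encoded lists. At 6 and 7 libraries, a p that misses the threshold does not show that levels did not differ. Tissue makeup and expression per cell cannot be separated in these libraries, and no clock time was available to set beside the clock genes.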

Other observations

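Lists of stress, transport and lipid genes were counted beside the shares of all genes, 16.7% higher and 21.0% lower. Some counts lay near those shares, such as the risen sterol synthesis genes and the fallen immediate early genes. Of 15 tested genes of the integrated stress response 5 rose and 4 fell, with 3 risen with library totals and 2 fallen without control 2. Gdf15 (4.07 ± 0.34), a secreted stress hormone gene, Sesn2 (2.09 ± 0.17), an inhibitor of growth signalling, and Trib3 (1.29 ± 0.30) rose. Gdf15 was at 0.268, 0.430 and 1.28 CPM in controls and 7.67, 9.95 and 13.9 CPM in FLASH. Of 18 immediate early genes 5 rose, 2 with library totals, and 3 fell, with Fosl1 (4.52 ± 0.73), which encodes the AP-1 subunit FRA1, at 0, 0.0495 and 0.329 CPM in controls and 0.484, 1.17 and 6.12 CPM in FLASH, and at 5.55 without control 3. Of 20 sterol synthesis genes 4 rose and 1 fell, among them Insig1 (1.58 ± 0.36) and Msmo1 (1.69 ± 0.29). Ion and fluid transport genes rose in 8 of 19 tested cases, 5 with library totals, and fell in 2. The chloride exchanger gene Slc26a3 (1.62 ± 0.14) rose, and the chloride uptake gene Slc12a2 (-1.11 ± 0.22) fell. Of 10 tested stress-responsive long noncoding RNAs 4 rose and none fell, including Pvt1 (1.78 ± 0.25). None was counted as risen with limma-trend on the authors' log2 values, but Pvt1 was not tested there. It kept its call in all 30 alternatives that tested it.

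Gene families, grouped by the letters that start their symbols and by no earlier list, differed in direction. Against 16.7% of all genes higher, 22 of 44 cytochrome P450 genes, 7 of 12 acyl-CoA thioesterase genes, 9 of 14 carboxylesterase genes and 7 of 10 oxysterol-binding protein genes rose. Against 21.0% of all genes lower, 10 of 10 guanylate-binding protein genes, 6 of 9 GTPase genes of the Gimap cluster, 21 of 35 collagen genes and 8 of 11 voltage-gated calcium channel genes fell. These groupings were chosen after their values were seen and were not tested as groups.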
